A study of Mus musculus with 9 samples.

Results

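Macrophages and monocytes of the mouse heart were followed through 37 genes, the 38 names of a fixed list after Emr1, the older name of Adgre1, was merged with it, out of 16951 genes in the table, and all 37 were found. Poly(A) RNA from hearts of C57BL/6 mice had been sequenced in 3 groups of 3 libraries: mice given AngII together with PGE1 (AngII+PGE1), mice given AngII alone, and mice given saline. Angiotensin II (AngII) is a pressor peptide that causes cardiac hypertrophy and inflammation, prostaglandin E1 (PGE1) is a lipid mediator that acts on prostanoid receptors, and the series concerns whether PGE1 attenuates the hypertrophy. AngII was common to the first 2 groups, and no group received PGE1 alone. Dose, route, duration, age and sex are not stated in the sources used here. Nothing stated whether the 3 libraries of a group were from separate mice, and the p-values therefore reflect library-to-library spread that may be technical.

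Macrophages are phagocytes that depend on signalling through the CSF1 receptor and on the transcription factor PU.1. The healthy heart holds long-lived resident macrophages, which carry LYVE1, FOLR2, the mannose receptor MRC1 and the scavenger receptor CD163 and clear debris from cardiomyocytes. Under pressure overload or injury, monocytes that carry the chemokine receptor CCR2 leave the blood, enter the myocardium and become inflammatory or lipid-handling macrophages. The 37 genes were therefore read in 4 role groups: 10 resident genes, 6 recruited and inflammatory genes, 14 pan-macrophage genes and 7 pan-leukocyte genes, the last being shared with other white blood cells. Several are not restricted to macrophages: Lyve1 also marks lymphatic endothelium, Pf4 platelets and F13a1 monocytes and platelets, while Gas6, Maf and Lgals3 are also made by non-immune cells.

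The libraries did not all lie with their groups. Over all tested genes saline 2 and AngII+PGE1 1 fell on the same side of the first principal component as the 3 AngII libraries, and that component held 62.3% of the variance. Libraries are numbered in column order within a group, and the numbers pair nothing. AngII 2 was the highest AngII library for 29 of the 37 members, including all 14 pan-macrophage genes. AngII+PGE1 2 was the lowest of its group for 29 members, and saline 2 was the lowest saline library for 12 of the 14 pan-macrophage genes. Cardiomyocyte transcripts were abundant in every library, with 4196 to 6262 FPKM of Myh6, the adult myosin heavy chain gene. The 8 cardiomyocyte markers summed to 60282 to 74825 FPKM in AngII+PGE1, 55152 to 78643 FPKM in AngII and 54398 to 78400 FPKM in saline. Saline 2 and AngII+PGE1 1 were the highest of their groups in this sum, and its part in the results was not tested. The 37 members summed to 662 to 1210 FPKM in a library and so describe a small fraction of heart RNA.

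Levels are in FPKM, which is per transcript length, so genes can be ranked by it. In saline hearts the members ranged from 0.673 ± 0.217 FPKM for Ccr2 to 160 ± 40.9 FPKM for Lyz2, the lysozyme M gene of myeloid cells (SD, n = 3). Lyz2 was followed by the complement genes C1qa and C1qb and by Gas6, a ligand of the receptors AXL, MERTK and TYRO3, with 98.6 ± 11.3, 88.0 ± 18.7 and 76.5 ± 2.33 FPKM (SD, n = 3). C1qb did not differ from C1qa or from Gas6 beyond its own SD. The saline libraries of C1qa, at 90.89 to 111.63 FPKM, all lay above those of Gas6, at 74.87 to 79.19 FPKM. Of the resident genes Cbr2, a carbonyl reductase gene, and Pf4 were at 33.4 ± 7.25 and 31.6 ± 3.61 FPKM, against 3.98 ± 0.922 for Cd163 and 4.91 ± 0.806 for Mrc1 (SD, n = 3). All 37 members reached 1 FPKM in at least 3 libraries and were tested. Ccr2 did so in 4 libraries only, those of AngII and AngII+PGE1 1, and so passed this filter through the group where it was high.

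The first question was how AngII alone altered macrophage genes of the heart. Of the 6 recruited and inflammatory genes 3 rose, Trem2, Lgals3 and Ccr2, while among the 10 resident genes none rose and 1 fell, Retnla. In all, 5 of 37 members rose (13.5%) and 1 fell (2.7%), where 1.31% of all 11902 tested genes rose and 1.8% fell. Either way 3.11% of all tested genes were called. At an unadjusted p under 0.05, 14 members were higher and 2 lower, where 17% and 18.1% of all tested genes were, 35% in either direction. The threshold is an adjusted p under 0.05 in limma, adjusted over all tested genes. The median difference in log2(FPKM + 1) was 0.90 over the recruited and inflammatory genes, 0.56 over the pan-leukocyte genes, 0.30 over the pan-macrophage genes and 0.09 over the resident genes, against 0.001 over all tested genes. Because whole hearts were sequenced, more cells of a type and more RNA per cell cannot be told apart.

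**Figure D1:**
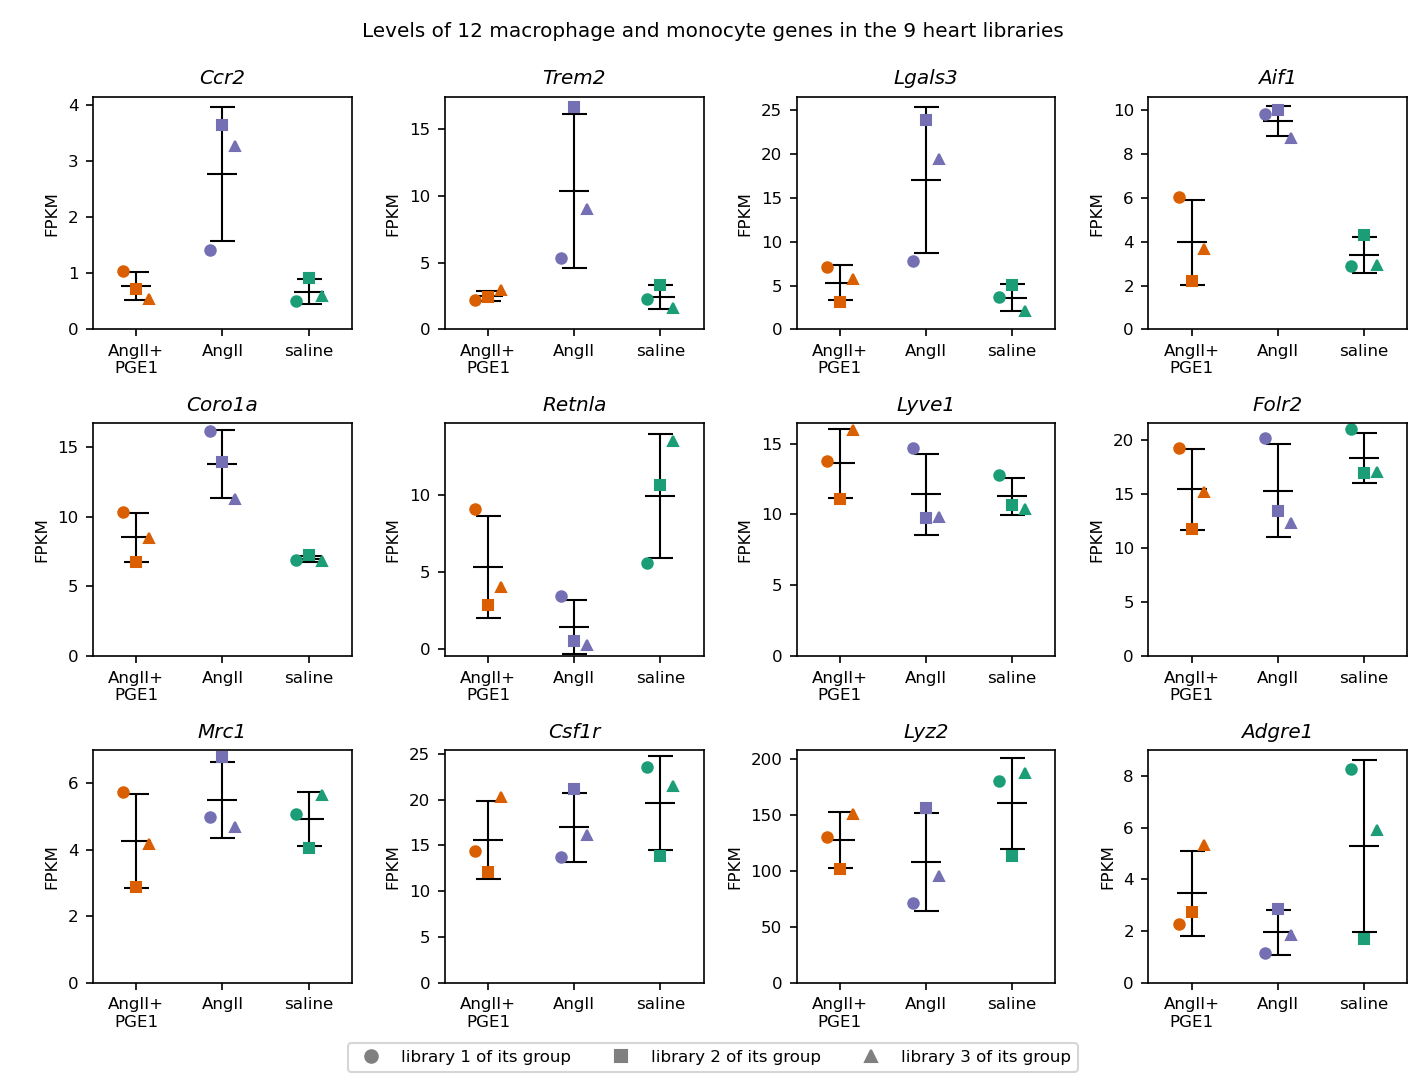
FPKM of 12 members in each library, with the groups AngII+PGE1, AngII and saline on the horizontal axis and the symbol showing the library of a group; the wide bar is the mean and the whiskers the SD of 3 libraries. The AngII libraries lie above the other groups for Ccr2, Trem2, Lgals3, Aif1 and Coro1a (Aif1 8.72 to 9.99 FPKM, against 2.21 to 6.04 and 2.90 to 4.32 FPKM), Retnla is lower in AngII than in saline, and Lyve1, Folr2 and Mrc1 overlap.

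Trem2 encodes a lipid-sensing receptor of macrophages that signals through the adaptor TYROBP. Trem2 was at 5.34, 16.63 and 8.98 FPKM in the AngII libraries and at 2.31, 3.33 and 1.57 FPKM in the saline libraries. All 3 AngII libraries lay above all saline libraries, AngII 2 being the highest and AngII 1 the closest to saline. The difference was 1.64 on the log2(FPKM + 1) scale (SE 0.33, 95% interval 0.90 to 2.38, limma adjusted p = 0.0421).

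Lgals3 encodes galectin-3, a sugar-binding lectin abundant in activated macrophages. Lgals3 was at 7.82, 23.93 and 19.46 FPKM in the AngII libraries, against 3.69, 5.1 and 2.12 FPKM in the saline libraries. The groups did not overlap, and the log2 difference was 1.89 (SE 0.40, limma adjusted p = 0.0453).

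Ccr2 encodes the receptor for the monocyte attractant CCL2. It stood at 1.41, 3.65 and 3.26 FPKM in the AngII libraries and at 0.51, 0.92 and 0.59 FPKM in the saline libraries. Again no libraries overlapped (log2 difference 1.12, SE 0.25, limma adjusted p = 0.0453). Every saline library was under 1 FPKM, so Ccr2 entered the test through the AngII libraries. The other 3 genes of this role group did not pass. Fcgr1, the high-affinity IgG receptor gene, had a log2 difference of 0.67 (limma adjusted p = 0.0855), with 1 saline library inside the AngII range. Cd14, the co-receptor for bacterial lipopolysaccharide, and Itgam, the integrin chain CD11b, had differences of -0.28 and -0.33 (limma adjusted p = 0.439 and 0.278).

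Among the pan-macrophage genes Aif1, which encodes the actin-bundling protein IBA1, rose, and 13 of 14 did not pass. Aif1 was at 9.82, 9.99 and 8.72 FPKM in the AngII libraries, against 2.9, 4.32 and 2.95 FPKM in the saline libraries. The AngII libraries were close together and all lay above saline (log2 difference 1.27, SE 0.26, limma adjusted p = 0.0421). C1qa, a chain of the complement initiator C1q, was at 156.98, 174.99 and 142.02 FPKM in AngII, against 111.63, 90.89 and 93.36 FPKM in saline, which did not overlap but missed the threshold (log2 difference 0.68, SE 0.18, limma adjusted p = 0.0631). The partner chains C1qb and C1qc had differences of 0.55 and 0.07 (limma adjusted p = 0.114 and 0.871). Spi1, the PU.1 gene, had a difference of 0.56 (limma adjusted p = 0.131) and Mpeg1, the gene of the pore-forming protein perforin-2, one of 0.71 (limma adjusted p = 0.166).

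The classical macrophage markers gave no such rise. Csf1r, the receptor gene for the growth factors CSF1 and IL-34, was at 13.75, 21.14 and 16.14 FPKM in AngII, against 23.63, 13.89 and 21.45 FPKM in saline (log2 difference -0.19, 95% interval -0.74 to 0.37, limma adjusted p = 0.605). Cd68, a lysosomal glycoprotein gene, was at 19.97, 28.21 and 16.53 FPKM in AngII, against 23.58, 13.17 and 13.74 FPKM in saline (0.35, limma adjusted p = 0.352). Lyz2 had 71.1, 156.48 and 95.68 FPKM in AngII, against 180.49, 113.23 and 187.11 FPKM in saline (-0.61, limma adjusted p = 0.171), and it shares sequence with Lyz1, listed at 13.89 to 34.46 FPKM, so reads may have been split between them. Adgre1, the gene of the F4/80 antigen, was at 1.13, 2.87 and 1.83 FPKM in AngII, against 8.3, 1.7 and 5.9 FPKM in saline (-0.96, SE 0.43, limma adjusted p = 0.143). For Csf1r, Lyz2 and Adgre1 saline 2 was the lowest saline library and lay within the AngII range, and Adgre1 passed without it (log2 difference -1.49, limma adjusted p = 0.00977), as did 38.1% of all tested genes. It passed in none of the other 8 omissions of a library, and its adjusted p ran up to 0.441 over all of them.

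Retnla was the resident gene that changed. It encodes RELM-alpha, a secreted protein of alternatively activated macrophages. Retnla was at 3.43, 0.5 and 0.27 FPKM in the AngII libraries, against 5.63, 10.7 and 13.56 FPKM in the saline libraries. The highest AngII library, AngII 1, stayed below the lowest saline library, and the log2 difference was -2.35 (SE 0.51, 95% interval -3.48 to -1.23, limma adjusted p = 0.0453).

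The defining surface genes of resident macrophages overlapped between AngII and saline. Lyve1, a hyaluronan receptor gene, was at 14.73, 9.73 and 9.79 FPKM in AngII, against 12.78, 10.66 and 10.4 FPKM in saline, with a 95% interval of the log2 difference of -0.44 to 0.44. Folr2, the folate receptor beta gene, was at 20.16, 13.4 and 12.29 FPKM in AngII, against 20.99, 16.88 and 17.01 FPKM in saline (-0.27, limma adjusted p = 0.394). Cd163 had 4.33, 3.31 and 4.9 FPKM in AngII, against 3.54, 5.04 and 3.36 FPKM in saline (0.06, limma adjusted p = 0.841). The groups overlapped for each of them. For Folr2, AngII 2 and AngII 3 lay below all saline libraries and no AngII library lay above them. Mrc1 had 4.99, 6.8 and 4.68 FPKM in AngII, against 5.07, 4.04 and 5.63 FPKM in saline (0.13, limma adjusted p = 0.69). Maf, the gene of the transcription factor c-MAF, was at 8.57, 8.78 and 8.18 FPKM in AngII, against 5.05, 5.45 and 6.15 FPKM in saline, without overlap but not past the threshold (0.54, SE 0.20, limma adjusted p = 0.0973). Differences of the remaining resident genes F13a1, Gas6, Pf4 and Cbr2 were -0.54, 0.16, 0.21 and 0.16 (limma adjusted p = 0.165 to 0.604).

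**Figure D2:**
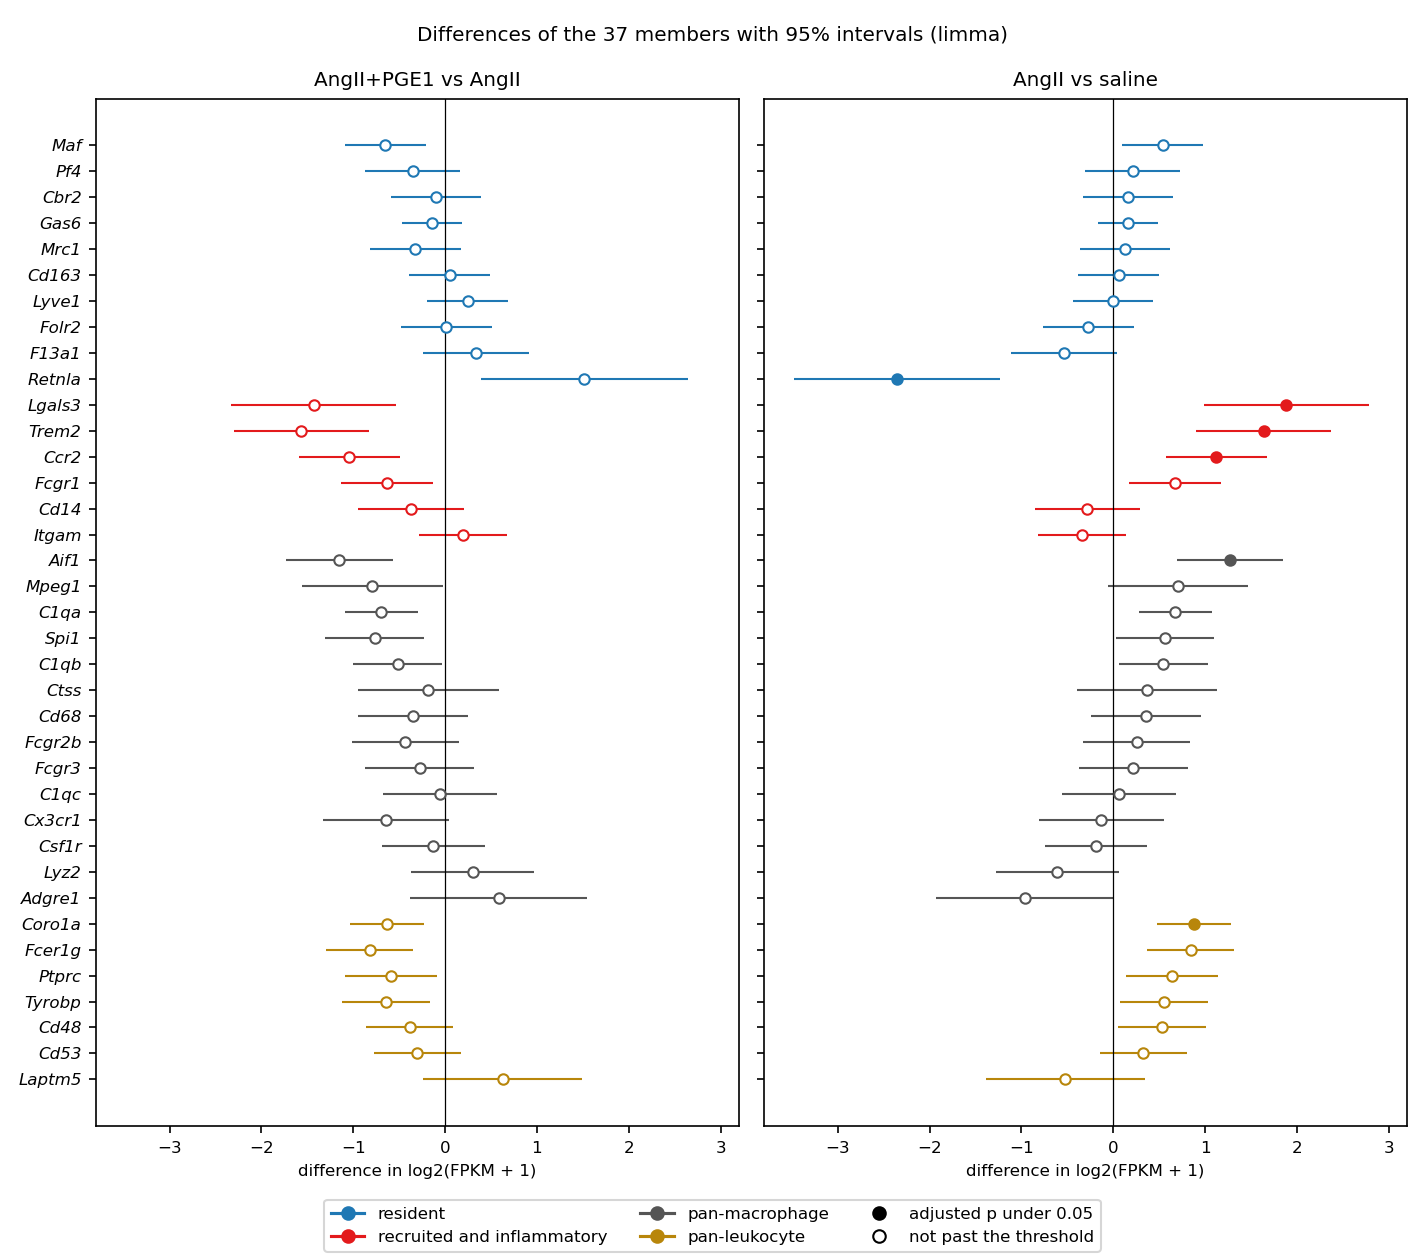
Difference in log2(FPKM + 1) of each of the 37 members (horizontal axis) for AngII+PGE1 vs AngII (left) and AngII vs saline (right), with 95% intervals from limma; colours give the role group and filled points passed an adjusted p of 0.05. Lgals3, Trem2, Ccr2, Aif1 and Coro1a are the filled points to the right of 0 for AngII vs saline and Retnla the filled point to the left, and no point is filled for AngII+PGE1 vs AngII; both panels use the AngII libraries, so a mirrored pattern arises in part from the shared libraries.

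Among the 7 pan-leukocyte genes 1 rose, Coro1a, which encodes the actin regulator coronin-1A. Coro1a was at 16.13, 13.9 and 11.23 FPKM in AngII, against 6.9, 7.21 and 6.79 FPKM in saline. The AngII libraries were all well above the tight saline group (log2 difference 0.88, SE 0.18, limma adjusted p = 0.0435). Fcer1g, the gene of the gamma chain that carries signals of Fc receptors, was at 62.41, 80.9 and 71.47 FPKM in AngII, against 42.02, 43.36 and 33.22 FPKM in saline, and just missed the threshold (0.84, SE 0.21, limma adjusted p = 0.0559). Tyrobp, the adaptor of TREM2, was at 35.3, 52.19 and 41.22 FPKM in AngII, against 31.53, 25.31 and 28.98 FPKM in saline (0.56, limma adjusted p = 0.106). Ptprc, the gene of the leukocyte antigen CD45, was at 2.15, 3.07 and 2.23 FPKM in AngII, against 1.06, 1.47 and 1.14 FPKM in saline (0.64, limma adjusted p = 0.0898). Groups did not overlap for these genes or for Cd48, a signalling-lymphocyte-activation family gene. Laptm5, a lysosomal membrane protein gene, had the opposite sign, at 12.85, 20.02 and 13.12 FPKM in AngII, against 34.83, 10.83 and 27.67 FPKM in saline (-0.52, limma adjusted p = 0.344), with saline 2 the lowest of all libraries.

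Over the whole list, AngII lay above saline without overlap for 12 of 37 members (32.4%) and below it for 1 (2.7%), where 17.9% and 15.8% of all tested genes did so. The count of 6 calls rested on which libraries were used: it was 0 without AngII 2, AngII 3, saline 1, saline 3, AngII+PGE1 2 or AngII+PGE1 3, 4 without AngII 1, 10 without AngII+PGE1 1 and 12 without saline 2. Calls over all tested genes moved with it, at 0.552%, 13.3% and 38.1% in the last 3 cases, so that the 12 members (32.4%) were a smaller share than that of all genes. Without AngII 2, AngII 3, saline 1 or saline 3, no gene of the whole table passed either.

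**Figure D3:**
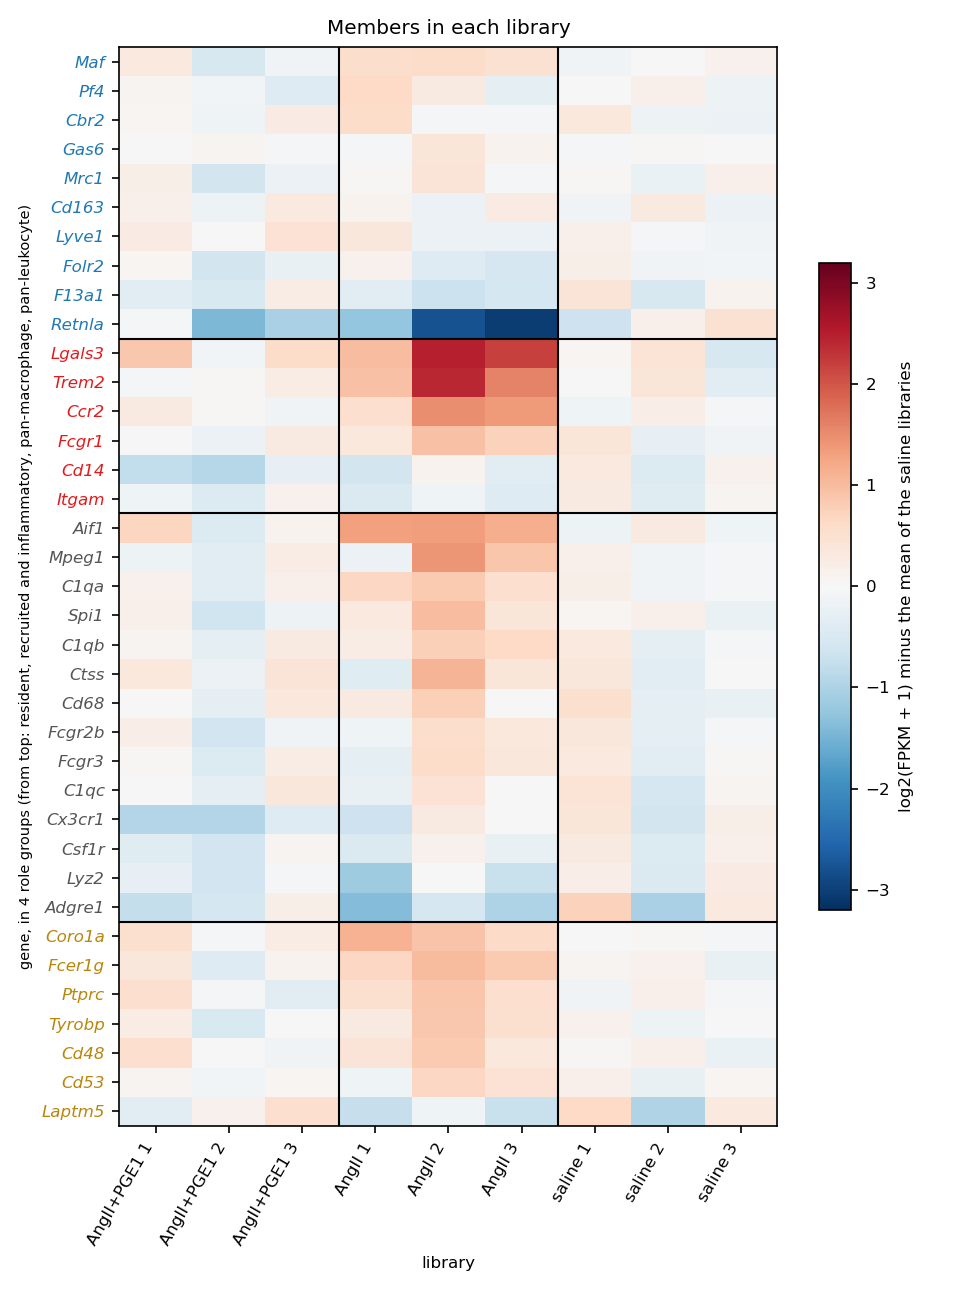
log2(FPKM + 1) of each member in each library minus the mean of the 3 saline libraries (red higher, blue lower), with libraries in columns by group, AngII+PGE1 to the left, and genes in rows by role group. Lgals3, Trem2, Ccr2 and Aif1 are red in the AngII columns and strongest in AngII 2 for Lgals3 and Trem2 (23.93 and 16.63 FPKM), Retnla is blue there, and Adgre1 and Laptm5 are blue in AngII 1, AngII 3 and saline 2.

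The effect of adding PGE1 to AngII was read from AngII+PGE1 against AngII. The members that AngII had raised were lower with PGE1 in each case, but none passed the threshold. Of the 37 members 0 rose and 0 fell (limma, also 0 with robust limma), where 0.202% of all tested genes rose and 0.202% fell, and 15 members had an unadjusted p under 0.05, 14 of them lower, where 33.6% of all tested genes had such a p, 20.5% being lower and 13.1% higher. AngII+PGE1 lay below AngII without overlap for 11 members (29.7%) and above it for 0, where 19.7% and 16.3% of all tested genes did so. The median log2 difference was -0.84 over the recruited and inflammatory genes, -0.59 over the pan-leukocyte genes, -0.39 over the pan-macrophage genes and -0.04 over the resident genes, against -0.08 over all tested genes, a median that median-ratio scaling placed at 0.03. These values use the same AngII libraries as the comparison with saline, so opposite signs in the 2 comparisons are not independent.

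Trem2 stood at 2.19, 2.43 and 2.91 FPKM with PGE1, against 5.34, 16.63 and 8.98 FPKM in AngII, and the groups did not overlap (log2 difference -1.57, SE 0.33, limma adjusted p = 0.0557). Ccr2 was at 1.04, 0.72 and 0.55 FPKM with PGE1, against 1.41, 3.65 and 3.26 FPKM in AngII (-1.04, SE 0.25, limma adjusted p = 0.0590). Both were below every AngII library. Lgals3 was at 7.16, 3.18 and 5.72 FPKM with PGE1, against 7.82, 23.93 and 19.46 FPKM in AngII (-1.43, SE 0.40, limma adjusted p = 0.0686), AngII+PGE1 1 lying just under AngII 1. Aif1 was at 6.04, 2.21 and 3.68 FPKM with PGE1, against 9.82, 9.99 and 8.72 FPKM in AngII (-1.15, SE 0.26, limma adjusted p = 0.0577). C1qa was at 107.81, 77.39 and 109.11 FPKM with PGE1 (-0.69, limma adjusted p = 0.0624) and Fcer1g at 50.77, 29.46 and 42.22 FPKM (-0.82, limma adjusted p = 0.0621). All of the AngII values of these genes were higher.

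Coro1a was at 10.31, 6.76 and 8.45 FPKM with PGE1 (-0.64, limma adjusted p = 0.0695), Maf at 7.05, 3.57 and 5.05 FPKM (-0.65, limma adjusted p = 0.0783) and Tyrobp at 34.04, 20 and 28.12 FPKM (-0.64, limma adjusted p = 0.0895). These too were below all AngII libraries. Retnla was at 9.15, 2.87 and 4.03 FPKM with PGE1, against 3.43, 0.5 and 0.27 FPKM in AngII; AngII+PGE1 2 lay below AngII 1, and the difference missed the threshold (1.52, SE 0.51, limma adjusted p = 0.0888). Mpeg1 was at 4.06, 3.43 and 5.68 FPKM, against 3.97, 14.08 and 9.34 FPKM in AngII (-0.79, limma adjusted p = 0.139), and Ptprc at 2.22, 1.15 and 0.76 FPKM (-0.59, limma adjusted p = 0.11), both with overlapping groups. The surface genes of resident macrophages overlapped as well: Lyve1 was at 13.76, 11.08 and 15.98 FPKM with PGE1 (0.24, limma adjusted p = 0.386), Folr2 at 19.22, 11.76 and 15.19 FPKM (0.01, limma adjusted p = 0.968), Cd163 at 4.51, 3.43 and 5.15 FPKM (0.05, limma adjusted p = 0.874) and Mrc1 at 5.72, 2.89 and 4.18 FPKM (-0.32, limma adjusted p = 0.311).

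The pan-markers Csf1r, Cd68, Lyz2 and Adgre1 were at 12.1 to 20.31, 13 to 20.79, 101.7 to 150.91 and 2.29 to 5.34 FPKM with PGE1, each overlapping AngII (log2 differences -0.13, -0.35, 0.30 and 0.58; limma adjusted p = 0.349 to 0.736). The call count depended on the libraries here too. It was 11, all lower, without AngII+PGE1 1, 9 without saline 2 and 2 without AngII 1 (Ccr2 and Trem2), and 0 without each of the other 6 libraries. Over all tested genes 26.9%, 20.6% and 0.28% were called in those 3 cases, so the 11 members (29.7%) were close to the share of all genes.

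The comparison of AngII+PGE1 with saline asked whether macrophage genes of PGE1-treated hearts differed from those of hearts without AngII. None of the 37 members passed (limma, also 0 with robust limma), 2 had an unadjusted p under 0.05, both lower, and 0.0168% of all tested genes were called. At an unadjusted p under 0.05, 4.23% of all tested genes differed, 3.12% of all being lower and 1.12% higher. No member was without overlap, where 2.3% of all tested genes were higher and 7.89% lower without overlap. Trem2 averaged 2.51 ± 0.367 FPKM in AngII+PGE1 and 2.40 ± 0.884 FPKM in saline (SD, n = 3 each), and the 95% interval of the log2 difference was -0.66 to 0.81. Intervals were -0.47 to 0.63 for Ccr2, -0.44 to 1.35 for Lgals3, -0.46 to 0.70 for Aif1 and -1.96 to 0.29 for Retnla. The lowest unadjusted p-values belonged to Cd14 and to Cx3cr1, the fractalkine receptor gene of monocytes and macrophages, at -0.65 and -0.77 on the log2 scale (limma adjusted p = 1 each).

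**Figure D4:**
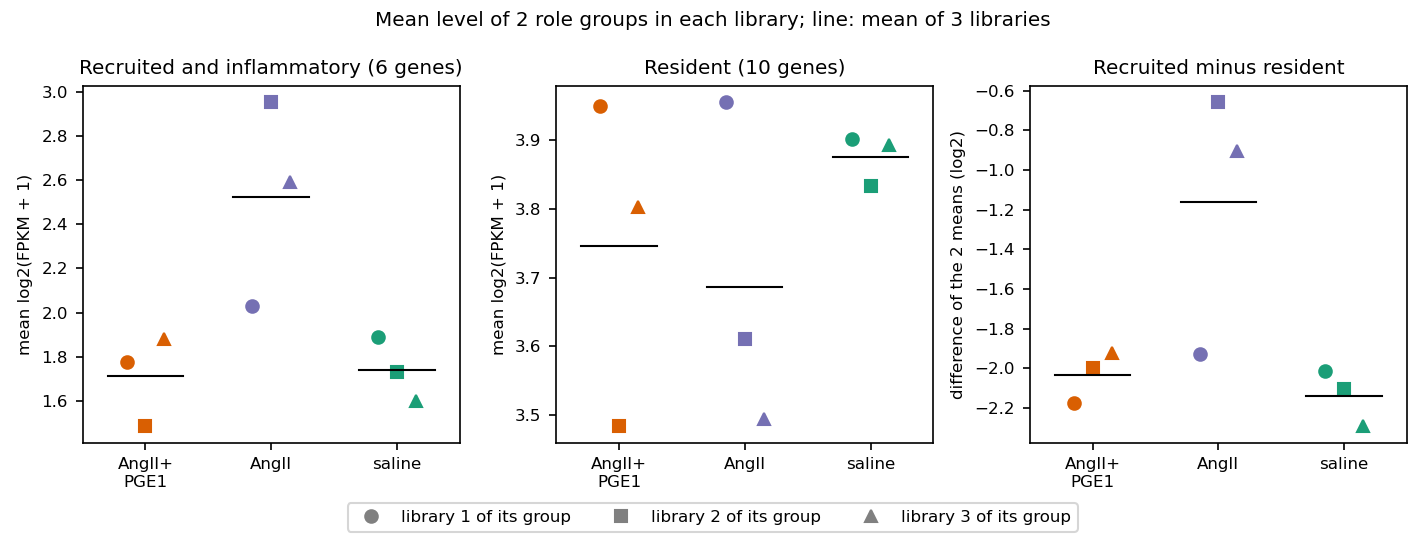
Mean log2(FPKM + 1) of the 6 recruited and inflammatory genes (left), of the 10 resident genes (middle) and their difference (right) in each library; the line is the mean of 3 libraries and the axes do not start at 0. AngII 2 and AngII 3 stand apart in the difference (-0.66 and -0.91), whereas AngII 1 at -1.93 lies beside AngII+PGE1 3 at -1.92.

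Recruited genes were set against resident genes within each library. The mean log2(FPKM + 1) of the recruited and inflammatory genes lay between 1.48 and 1.88 in AngII+PGE1, between 2.03 and 2.95 in AngII and between 1.60 and 1.89 in saline. The resident mean lay between 3.48 and 3.95, between 3.49 and 3.96 and between 3.83 and 3.90 in the same groups. Their difference was -2.18, -1.999 and -1.92 in AngII+PGE1, -1.93, -0.66 and -0.91 in AngII and -2.01, -2.10 and -2.29 in saline. AngII therefore lay above saline in all libraries, AngII 1 by little, and AngII overlapped AngII+PGE1. As a mean over members chosen with results known, it is a description and was given no test.

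Ratios of FPKM between members were taken within each library. Several set a called gene over an uncalled one and so restate the calls. Trem2 over Csf1r was 0.152, 0.201 and 0.143 in AngII+PGE1, 0.388, 0.787 and 0.556 in AngII and 0.0978, 0.24 and 0.0732 in saline. The AngII libraries were all above both other groups. Trem2 over its adaptor gene Tyrobp was 0.0643 to 0.121 in AngII+PGE1, 0.151 to 0.319 in AngII and 0.0542 to 0.132 in saline, again with AngII apart. Aif1 over Csf1r was 0.181 to 0.419 in AngII+PGE1, 0.473 to 0.714 in AngII and 0.123 to 0.311 in saline. Ccr2 over Ptprc was 0.468 to 0.724, 0.656 to 1.46 and 0.481 to 0.626 in the same order of groups, so AngII lay above saline and overlapped AngII+PGE1. Retnla over Mrc1 was 0.964 to 1.60 in AngII+PGE1, 0.0577 to 0.687 in AngII and 1.11 to 2.65 in saline, with AngII below both other groups. The chains of C1q, which assemble in equal numbers, were not in a fixed ratio: C1qb over C1qc was 1.18 to 1.36 in AngII+PGE1, 1.56 to 1.99 in AngII and 1.15 to 1.49 in saline, saline 2 being the highest saline library. C1qa over C1qc was 1.22 to 1.58, 1.84 to 2.68 and 1.18 to 1.91 in the same groups, so AngII overlapped saline, and C1qa over C1qb overlapped in both comparisons. Folr2 over Csf1r overlapped between all groups, at 0.748 to 1.33, 0.634 to 1.47 and 0.793 to 1.22. Adgre1 over Csf1r was 0.159 to 0.263 in AngII+PGE1, 0.0822 to 0.136 in AngII and 0.122 to 0.351 in saline, and Lgals3 over Cd68 was 0.245 to 0.444, 0.392 to 1.18 and 0.154 to 0.387, so that AngII overlapped saline for Adgre1 over Csf1r and AngII+PGE1 for Lgals3 over Cd68.

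Promoters of the genes that AngII changed are shown for Trem2 and Aif1, which rose, for Ccr2, which rose and has no match, and for Retnla, which fell. Lgals3 and Coro1a, the other called members, also had no match, so 3 of the 6 called members held one. Each is the RefSeq promoter on GRCm38.p6, 5′ to 3′ on the gene's strand, from 250 bases before to 50 bases after the start; capitals mark the letters GAGGAA or their reverse complement TTCCTC, a core that PU.1 can bind. The positions are Trem2 chr17:48346151-48346450 (plus strand), Aif1 chr17:35176003-35176302 (minus strand), Ccr2 chr9:124101933-124102232 (plus strand) and Retnla chr16:48842359-48842658 (plus strand).
Trem2: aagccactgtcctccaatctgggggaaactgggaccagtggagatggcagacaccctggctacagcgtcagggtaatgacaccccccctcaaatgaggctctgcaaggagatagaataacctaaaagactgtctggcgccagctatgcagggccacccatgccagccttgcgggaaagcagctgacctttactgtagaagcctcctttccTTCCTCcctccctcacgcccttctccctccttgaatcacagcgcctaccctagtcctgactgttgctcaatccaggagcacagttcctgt
Aif1: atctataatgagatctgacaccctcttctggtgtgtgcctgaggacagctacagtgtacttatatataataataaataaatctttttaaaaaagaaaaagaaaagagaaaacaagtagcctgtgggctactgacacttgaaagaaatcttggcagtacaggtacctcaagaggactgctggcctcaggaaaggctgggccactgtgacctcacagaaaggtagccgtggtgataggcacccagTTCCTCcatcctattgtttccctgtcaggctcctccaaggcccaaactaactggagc
Ccr2: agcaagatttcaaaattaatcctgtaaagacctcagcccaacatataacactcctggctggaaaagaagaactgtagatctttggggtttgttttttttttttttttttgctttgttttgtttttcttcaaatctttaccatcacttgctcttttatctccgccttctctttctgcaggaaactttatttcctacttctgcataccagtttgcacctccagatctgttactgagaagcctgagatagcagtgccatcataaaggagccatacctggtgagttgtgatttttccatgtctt
Retnla: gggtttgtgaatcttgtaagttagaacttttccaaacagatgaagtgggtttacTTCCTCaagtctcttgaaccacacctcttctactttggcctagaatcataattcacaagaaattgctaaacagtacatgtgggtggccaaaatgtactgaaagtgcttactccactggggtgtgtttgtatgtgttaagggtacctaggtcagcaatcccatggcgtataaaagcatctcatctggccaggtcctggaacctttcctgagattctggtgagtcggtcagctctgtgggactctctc
The match began 40 bases before the start in Trem2, 7 before it in Aif1 and 196 before it in Retnla, in each case on the opposite strand. Of the 29 members with a RefSeq promoter, 17 held the letters on either strand (58.6%), against 8446 of 27025 genes in all (31.3%). By role group this was 3 of 5 recruited and inflammatory, 5 of 8 resident, 6 of 10 pan-macrophage and 3 of 6 pan-leukocyte genes. A match in letters is a description, not a binding site. Lyve1, Maf, Cd14, Adgre1, Csf1r, Spi1, C1qa and Tyrobp had no entry in the table.

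Genes that feed and attract monocytes were taken from a separate list of 16 CSF1 receptor ligands, CSF2 receptors and attractants. Of 13 tested, 2 rose with AngII, both of them chemokine genes, and none fell, where 1.31% of all tested genes rose and 1.8% fell. Ccl12, a mouse ligand of CCR2, was at 11.04, 12.16 and 14.95 FPKM in AngII, against 3.25, 3.08 and 2.14 FPKM in saline (log2 difference 1.85, limma adjusted p = 0.0411). In AngII+PGE1 it was at 11.02, 2.75 and 3.65 FPKM, AngII+PGE1 1 lying just under the lowest AngII library (-1.20 against AngII, limma adjusted p = 0.0782). Ccl8, the other, was at 12.84, 4.08 and 11.67 FPKM in AngII+PGE1, against 9.52, 15.16 and 15.73 FPKM in AngII and 1.03, 1.3 and 0.99 FPKM in saline. It overlapped AngII with PGE1 and lay above every saline library (2.19 against saline, limma adjusted p = 0.16). Ccl2 and Ccl7, the main CCR2 ligands, were at 1.46 to 3.54 and 1.56 to 2.87 FPKM in AngII, against 1.3 to 4.11 and 1.61 to 2.97 FPKM in saline (0.10 and 0.08; limma adjusted p = 0.857 and 0.813). Csf1 and Il34, which encode the ligands of CSF1R, had differences of -0.23 and 0.31 (limma adjusted p = 0.497 and 0.34). Csf2ra, a receptor gene for the growth factor GM-CSF, was at 17.01, 19.77 and 18.35 FPKM in AngII, against 7.58, 12.13 and 7.72 FPKM in saline (0.96, limma adjusted p = 0.0712).

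With AngII 1.31% of all tested genes rose, and of 22 tested partners of the members' receptors and ligands 1 did. It was Ly96, the MD-2 gene that works with CD14 and TLR4, at 8.32, 11.09 and 11.07 FPKM in AngII, against 3.87, 5.98 and 2.71 FPKM in saline (log2 difference 1.14, limma adjusted p = 0.0461). With PGE1 it was at 6.22, 3.7 and 4 FPKM, below every AngII library (-1.001, limma adjusted p = 0.0608). Apoe, which encodes a lipid carrier bound by TREM2, was at 380.11, 660.64 and 610.34 FPKM in AngII, against 362.65, 396.39 and 310.33 FPKM in saline, AngII 1 lying within the saline range (0.59, limma adjusted p = 0.105). Axl, Mertk and Tyro3, receptor genes for GAS6, had differences of -0.01, 0.39 and 0.44 (limma adjusted p = 0.983, 0.149 and 0.113). Mertk and Tyro3 were higher in AngII than in saline without overlap, and Axl overlapped. Of the 22 partners 6 were higher and 1 lower without overlap, where 17.9% and 15.8% of all tested genes were.

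Further markers were listed for the 2 kinds of macrophage. Of the 15 further monocyte and monocyte-derived genes only 3 were expressed enough to be tested, and 1 rose with AngII: Plac8, a gene high in Ly6C-high monocytes, at 1.51, 2.75 and 2.04 FPKM in AngII, against 0.61, 0.47 and 0.71 FPKM in saline (log2 difference 0.94, limma adjusted p = 0.0411). It was at 1.89, 1.47 and 1.81 FPKM in AngII+PGE1, overlapping AngII and above all saline libraries. Nos2, the inducible nitric oxide synthase gene, went the other way, at 5.89, 4.4 and 1.98 FPKM in AngII, against 8.46, 6.89 and 7.34 FPKM in saline, without overlap (-0.83, limma adjusted p = 0.0776). Ly6c2, a surface antigen gene of inflammatory monocytes, overlapped (0.19, limma adjusted p = 0.646). Spp1, the osteopontin gene of macrophages in fibrotic tissue, failed the filter on low values. It was listed at 0.77, 9.09 and 1.46 FPKM in AngII, without overlap with AngII+PGE1 (at most 0.48 FPKM) or saline (at most 0.35 FPKM). Of the 15 genes 5 were higher in AngII than in saline without overlap and 1 was lower, most of them untested. Over all tested genes 17.9% were higher and 15.8% lower in this way. Of 8 tested further resident genes none passed and 7 had a negative difference in AngII against saline, with a median of -0.60. Of all 11 listed, 3 were lower in AngII than in saline without overlap and 0 were higher. At an unadjusted limma p under 0.05, 5 of the 8 tested differed, each being lower in AngII, where 18.1% of all tested genes were lower. For AngII+PGE1 against AngII, which shares the AngII libraries, 6 were positive and 2 negative, with a median of 0.36 and none past the threshold. Ccl24, the eotaxin-2 gene, was at 2.41, 1.19 and 0.54 FPKM in AngII, against 3.06, 2.69 and 3.44 FPKM in saline, without overlap (-0.84, limma adjusted p = 0.0763), and Mgl2, a lectin gene, was at 11.94, 4.7 and 5.65 FPKM, against 19.79, 9.03 and 14.72 FPKM (-0.91, limma adjusted p = 0.108).

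Markers of other blood and tissue cells moved beside these genes, and their part in the results was not tested. The 10 neutrophil markers in the table summed to 9.11 to 11.15 FPKM in AngII+PGE1, 8.33 to 14.02 FPKM in AngII and 5.17 to 7.41 FPKM in saline. Csf3r, the G-CSF receptor gene, rose with AngII at 2.58, 3.35 and 3.32 FPKM, against 0.98, 1.55 and 1.35 FPKM in saline (log2 difference 0.83, limma adjusted p = 0.0411). Cxcr2, a chemokine receptor gene of neutrophils, was at 5.6, 3.75 and 5.24 FPKM in AngII, against 0.93, 2.56 and 1.25 FPKM in saline, without overlap (1.22, limma adjusted p = 0.052). With PGE1 it was at 2.52, 1.4 and 0.76 FPKM, below every AngII library (-1.24, limma adjusted p = 0.0590). S100a8 and S100a9 overlapped between AngII and saline, and Ly6g was at 0.22 FPKM or less in every library. With PGE1, S100a8 and S100a9 went the other way from Cxcr2, overlapping AngII (0.77 and 0.63 against AngII, limma adjusted p = 0.142 and 0.133). Of the 4 tested neutrophil markers 2 were higher and 2 lower with PGE1 than in AngII. The 11 T and NK cell markers summed to 5.75 to 9.05, 7.23 to 10 and 3.30 to 7.69 FPKM in AngII+PGE1, AngII and saline. Nkg7, a granule gene of cytotoxic lymphocytes, rose with AngII (2.22, 2.43 and 1.73 FPKM, against 0.52, 0.59 and 0.26 FPKM in saline; 1.10, limma adjusted p = 0.0375). Of the 11 markers 6 were higher in AngII than in saline without overlap, namely Nkg7, Cd3e, Cd3d, Cd3g, Cd8a and Lck, and 1 was lower, Cd247. Over all tested genes 17.9% were higher and 15.8% lower without overlap. Only 3 of the 11 reached the level needed for a test, so those shares do not cover the rest. Cd3e was at 0.38, 0.7 and 0.53 FPKM in AngII, against 0.12, 0.17 and 0.14 FPKM in saline. The 8 dendritic cell markers summed to 5.05 to 7.97, 8.85 to 11.67 and 6.28 to 8.55 FPKM and the 7 B cell markers to 2.25 to 7.82, 2.19 to 3.97 and 1.74 to 4.23 FPKM in the same order. Only 2 of the dendritic and 1 of the B cell markers could be tested, and none of these was called. Untested Flt3, Xcr1, Itgax, Siglech and Itgae, all under 1 FPKM, were higher in AngII than in saline without overlap. The shares over tested genes do not cover these genes either.

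Blood content varied within every group. Hba-a1, an alpha globin gene with a near-identical copy, was at 679.13, 3580.59 and 59.75 FPKM in AngII+PGE1, 106.38, 941.84 and 406.49 FPKM in AngII and 89.44, 602.85 and 47.25 FPKM in saline. AngII+PGE1 2, the library lowest for most members, was the highest in globin and in the 6 platelet markers, which summed to 0.76 to 19.67, 2.01 to 3.01 and 1.61 to 4.96 FPKM. The 7 vascular endothelial markers summed to 204.70 to 281.55 FPKM in AngII+PGE1, 176.54 to 294.86 FPKM in AngII and 354.58 to 388.08 FPKM in saline, lower than saline in each library of the treated groups, with no called gene. Of the 8 fibroblast markers Gsn, the gelsolin gene, was at 480.39, 559.56 and 564.59 FPKM in AngII+PGE1, 294.34, 201.97 and 220.15 FPKM in AngII and 610.84, 496.12 and 565.01 FPKM in saline. It fell with AngII (log2 difference -1.23, limma adjusted p = 0.0332) and rose with added PGE1 (1.18, limma adjusted p = 0.0427). The collagen genes of the list went the other way without passing the threshold. Col1a1 was at 14.63, 33.7 and 31.45 FPKM in AngII+PGE1, 56.41, 375.52 and 124.72 FPKM in AngII and 57.56, 36.45 and 48.92 FPKM in saline. For Col1a1, Col1a2 and Col3a1 the log2 differences were 1.54, 1.41 and 0.88 for AngII against saline (limma adjusted p = 0.0992, 0.0947 and 0.28) and -2.42, -2.09 and -2.43 for AngII+PGE1 against AngII (limma adjusted p = 0.0590, 0.0596 and 0.0590), AngII+PGE1 lying below AngII without overlap for each. The sums of that list were 910.15 to 959.13, 816.87 to 1799.27 and 988.60 to 1165.47 FPKM, AngII 2 being the highest. Lymphatic endothelial markers, which bear on Lyve1, summed to 17.61 to 21.69, 13.51 to 23.23 and 18.17 to 30.38 FPKM in AngII+PGE1, AngII and saline.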

How the data were processed

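The authors deposited 1 table of normalized expression with 9 library columns and 3 columns of log2 ratios between groups. The deposited expression values are FPKM, a unit read from the values: column sums differed by a ratio of 1.26, and sums of value times transcript length by 1.09. No source used here says how the authors' log2 ratios were made, and they were not used. RSEM 1.2.12, Bowtie2 2.2.5, HISAT2 2.0.4 and the mm9 build are named, without their roles, per the submitters' processing notes. Annotation and strand: not given in the sources used here. Read depth is unknown, since no counts were used; 11049 to 11970 genes reached 1 FPKM in a library.

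Column names show the group but not the sample. Values were analysed as log2(FPKM + 1), so fold changes of low genes are understated. The 11902 genes that reached 1 FPKM in 3 or more libraries entered 1 limma model (limma 3.58.1, R 4.3.3) of 3 group means with a variance trend and 6 residual degrees of freedom. Ccr2, Plac8 and Nkg7 were under 1 FPKM in every saline library and passed this filter through libraries of mice given AngII. P-values were two-sided and adjusted over all tested genes by the Benjamini-Hochberg method. Calls use an adjusted p under 0.05, and intervals are 95% intervals of the moderated test.

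The members, role groups, lists and alternatives were chosen with earlier results of these data known. Values by library are given for members past the threshold, for 16 members fixed by name and for the 2 of largest difference in each role group. Of other lists they are given for genes past the threshold and at most 2 more. For some of these genes a group is given only as a range or not at all. Any further gene named from those lists (Ccl2, Ccl7, Csf1, Il34, Csf2ra, Ly6g, Cxcr2, S100a8, S100a9, Cd3e, Cd3d, Cd3g, Cd8a, Lck, Cd247, Flt3, Xcr1, Itgax, Siglech, Itgae, Nos2, Ly6c2, Col1a1, Col1a2, Col3a1, Spp1, Axl, Mertk, Tyro3, Apoe, Hba-a1, Myh6, Lyz1) was chosen after its values were seen. Promoters are those of the RefSeq table for GRCm38.p6, used for sequence only.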

Additional observations from a re-analysis of the deposited data

How the results depend on the processing

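For AngII vs saline, 6 members passed, and 5 to 8 passed under robust limma, median-ratio scaling, quantile normalization, a pseudocount of 0.1, a 5 FPKM minimum or a model of only the 2 groups. Without a filter 0 passed, where 16951 genes were adjusted over, and 16 passed with both saline 2 and AngII+PGE1 1 left out, where 49.1% of all genes did. Leaving out each library in turn gave 0 to 12. For AngII+PGE1 vs AngII, 0 members passed, 3 passed with only the 2 groups in the model (Aif1, Ccr2 and Trem2; 7.91% of all genes), 1 with median-ratio scaling (Trem2; 2.82% of all genes) and 13 with both of those libraries left out (12 lower and 1 higher; 44.9% of all genes). Leaving out each library gave 0 to 11. For AngII+PGE1 vs saline 0 passed under every alternative. The causes were not tested. Over all genes the calls for AngII vs saline ran from 0 to 5768 across these settings.

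No called difference changed sign in any setting. For AngII+PGE1 vs AngII, median-ratio scaling moved the median of all genes to 0.03, against -0.08, and the calls over all genes to 219 higher and 117 lower, against 24 and 24. Under the library omissions the AngII vs saline differences ranged from 1.26 to 1.995 for Trem2, 1.59 to 2.34 for Lgals3, 0.95 to 1.42 for Ccr2, 1.19 to 1.42 for Aif1, 0.76 to 1.004 for Coro1a and -2.92 to -2.01 for Retnla. Where a group kept 2 libraries, its spread was pooled with the others. No paired analysis was possible because the column names do not carry the replicate numbers of the labels. Depth could not be used to weigh libraries, as no counts were given in the values used.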
